A study of Saccharomyces cerevisiae with 48 samples.

Results

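The first 15 min of S-phase were examined in synchronized budding yeast, in the 12 samples taken at 5, 10 and 15 min after release out of 48 samples in the series. The members were chosen by timepoint alone, and comprised 6 samples with and 6 without over-expression of Sld2, Sld3, Dpb11, Dbf4, Cdc45 and Sld7 (SSDDCS). All 4 strains were haploid W303 *MATa* and carried the auxotrophic markers of that background, its *can1* and weak *rad5* alleles and a deletion of *SML1*. The *sml1∆ SSDDCS* strains held the 6 genes as extra copies under the galactose-inducible *GAL1-10* promoter at *LEU2*, *HIS3* and *TRP1*, and had *SML1* replaced by a hygromycin resistance marker (*HphNT* in the labels), whereas in the *sml1∆* strains it was replaced by *URA3*. One strain of each kind lacked ARS1008 and ARS1009 beside *IME2* on Chr X, and the other lacked ARS816 and ARS818 beside *NDT80* on Chr VIII. They are named below SSDDCS IME2, SSDDCS NDT80, *sml1∆* IME2 and *sml1∆* NDT80 after the genes whose neighboring origins were removed. No strain with all origins intact was analysed here. Cells were arrested in G1 with alpha factor in raffinose medium, received galactose for 30 min and were released in galactose.

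DNA replication in budding yeast starts at origins (autonomously replicating sequences, ARS), where the Mcm2-7 helicase is loaded in G1 and activated in S-phase. Activation needs the kinase CDK, which acts through Sld2, Sld3 and Dpb11, and the kinase DDK, of which Dbf4 is the regulatory subunit, and Cdc45 then joins the helicase with the help of Sld3 and its partner Sld7. These factors are known to be limiting, so origins fire in a temporal order in which origins close to centromeres are early and those near telomeres are late. Sml1 inhibits ribonucleotide reductase, the enzyme that makes dNTPs. In a population, the DNA at an origin that has fired is present in more copies than unreplicated DNA, so early initiation is seen as a peak of copy number.

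The values are ratios of timepoint reads to the strain's own G1 reads in 1-kb bins, divided here by the bulk value, which is the mean DNA content per cell from flow cytometry between 1 and 2. The result, called relative copy number, averaged between 1.0011 and 1.0025 in each sample. The division thus sets the mean of each sample near 1. It does not remove the effect of progress on the amplitude of the profile, and so on peak numbers and heights. Between 11316 and 11327 bins had a value in a sample. Read numbers are not in the files, so depth is unknown and counting intervals are not given. The SD of a single bin, estimated from differences between adjacent bins, was 0.047 to 0.0667. Each strain had 1 time course, so the 2 strains of a kind served as replicates although they differ in the deleted origins. An exact permutation test of 2 strains against 2 cannot give a two-sided p below 0.333, and differences between single summary values are therefore given without a test. Bulk values also differed between strains at each time, so an effect of SSDDCS on the profile and a difference in progress cannot be told apart. The *sml1∆* IME2 sample at 10 min stood apart, with 19 dips besides its 17 peaks (definitions follow), whereas the other 3 samples at 10 min had 0, 0 and 1 dips.

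The origins on which the results turn are given first as sequence, to show what the profiles are centred on. Of the origins named in the text, 8 with an exact match to the ARS consensus sequence within the annotated origin are printed as 101 bases of the R64 reference genome, 5′ to 3′ on the strand of the match, with the 11 matching bases in capitals. ARS1116, ARS409 and ARS1419 were among the 6 highest origins with SSDDCS at 15 min, ARS1014 was high in both *sml1∆* strains and ARS606 in *sml1∆* IME2, and ARS1011, ARS1022 and ARS503 formed a peak in both SSDDCS strains only. The stretches lie at chrXI:517020-517120 (ARS1116, plus strand), chrIV:212535-212635 (ARS409, minus), chrXIV:449479-449579 (ARS1419, minus), chrX:417338-417438 (ARS1014, minus), chrVI:167681-167781 (ARS606, minus), chrX:337310-337410 (ARS1011, plus), chrX:711962-712062 (ARS1022, minus) and chrV:6380-6480 (ARS503, minus).
ARS1116: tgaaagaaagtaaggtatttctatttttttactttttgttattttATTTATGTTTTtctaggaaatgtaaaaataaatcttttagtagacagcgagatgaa
ARS409: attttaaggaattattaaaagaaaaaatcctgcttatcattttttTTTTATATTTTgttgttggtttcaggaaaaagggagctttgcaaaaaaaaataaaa
ARS1419: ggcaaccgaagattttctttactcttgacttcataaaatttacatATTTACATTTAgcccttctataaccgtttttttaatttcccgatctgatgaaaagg
ARS1014: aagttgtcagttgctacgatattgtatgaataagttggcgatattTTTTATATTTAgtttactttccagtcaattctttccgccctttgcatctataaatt
ARS606: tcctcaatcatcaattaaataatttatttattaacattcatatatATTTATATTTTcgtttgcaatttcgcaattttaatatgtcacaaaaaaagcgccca
ARS1011: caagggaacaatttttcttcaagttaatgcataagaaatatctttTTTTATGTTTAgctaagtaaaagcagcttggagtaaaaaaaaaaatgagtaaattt
ARS1022: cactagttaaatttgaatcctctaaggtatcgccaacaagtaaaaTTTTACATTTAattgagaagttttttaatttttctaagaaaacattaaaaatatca
ARS503: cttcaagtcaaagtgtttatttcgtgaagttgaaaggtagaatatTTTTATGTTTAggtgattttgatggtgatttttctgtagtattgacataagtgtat
An exact match on either strand was present in the central 300 bases of 116 of 339 annotated origins with data (34.2%), against 756 of 40229 windows of 300 bases over the genome (1.88%). The share was 17 of 51 among origins with a peak in both SSDDCS strains only, 9 of 21 among those with a peak in both *sml1∆* strains, and 28 of 103 among those without a peak in any strain at 15 min. These shares describe the letters only.

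At 5 min there was no copy number peak at origins in any strain. A peak was a local maximum of the 7-bin running mean at least 0.10 above the genome median of the sample, with a prominence of at least 0.05 and at least 10 kb from a higher one, and a dip was the same feature in the sign-turned profile. SSDDCS IME2, SSDDCS NDT80 and *sml1∆* NDT80 had 0 peaks and 0 dips. *sml1∆* IME2 had 1 peak and 1 dip, and the peak, on Chr XIV, was 18.1 kb from the nearest annotated origin (ARS1423). The SD of the running mean over the genome was 0.0209, 0.0195, 0.0255 and 0.0228 in SSDDCS IME2, SSDDCS NDT80, *sml1∆* IME2 and *sml1∆* NDT80, the order kept for every list of 4 values below. The noise of single bins alone gives 0.0184 to 0.0235 for a 7-bin mean. Bulk values at 5 min were already 1.14, 1.01, 1.028 and 1. The bulk value of SSDDCS IME2 was thus above 1 with a flat profile.

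At 10 min the first peaks had risen in 2 strains, 1 of each kind. SSDDCS IME2 had 27 peaks on 12 chromosomes and *sml1∆* IME2 had 17 on 9, whereas both NDT80 strains had 0. The bulk values were 1.302, 1.07, 1.116 and 1.01, so the strains with peaks were also those with the highest bulk values. All 27 peaks of SSDDCS IME2 lay within 5 kb of an annotated origin, at a median of 0.877 kb, while 25.7% of all bins lie that close. In *sml1∆* IME2 11 of 17 did (64.7%), and the remaining 6 were between 6.92 and 26.8 kb away. The difference in mean peak number at 10 min, 5 in favor of SSDDCS, was 13.5 without *sml1∆* IME2 and -8.5 without SSDDCS IME2, so it rests on these 2 strains.

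The highest first peak of SSDDCS IME2 was at ARS216 on Chr II, 0.154 above the median, followed by ARS1312 on Chr XIII (0.142), ARS425 on Chr IV (0.126) and ARS1116 on Chr XI (0.124). The median height was 0.111. In *sml1∆* IME2 the highest was at ARS432 on Chr IV (0.134), with ARS1312 (0.130) and ARS418 on Chr IV (0.126) next among those at origins, and the median height was also 0.111. Both medians lay close to the least height at which a peak was called, so their equality does not show that the peaks were equally high. The first peaks of these strains had 2 in common, at ARS216 and ARS1312 (7.41% of 27 and 11.8% of 17). Of the 27 SSDDCS IME2 peaks 3 were within 50 kb of a chromosome end (11.1%, against 13.3% of the genome) and 3 within 20 kb of a centromere (11.1%, against 5.3%). The other 3 strains had their own G1 samples. Of the 27 origins 20 had a peak in SSDDCS NDT80 at 15 min (74.1%, against 39.5% of all 339 origins). In *sml1∆* IME2 16 had one (59.3% against 34.5%), and in *sml1∆* NDT80 1 (3.7% against 6.78%). The first peaks of *sml1∆* IME2 lay within 5 kb of 11 origins. Of these, 11, 8 and 4 had a peak at 15 min in SSDDCS IME2, SSDDCS NDT80 and *sml1∆* NDT80. These shares were 100, 72.7 and 36.4%, against 57.2, 39.5 and 6.78% of all origins.

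Although SSDDCS NDT80 had no peak at 10 min, its origins had a higher median at 10 min than at 5 min. The median excess over the genome median within 2.5 kb of the 339 origins was 0.0593, 0.0204, 0.0199 and 0.0073 at 10 min, and 0.0066, 0.00066, 0.0035 and 0.0011 at 5 min. Averaged over 284 origins more than 40 kb from a chromosome end and outside the deleted regions, the copy number over the central 5 kb exceeded that 30 to 40 kb away by 0.0565, 0.0207, 0.0288 and 0.0068 at 10 min. At 5 min the same difference was 0.0058, -0.00099, 0.0026 and 0.002.

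**Figure D1:**
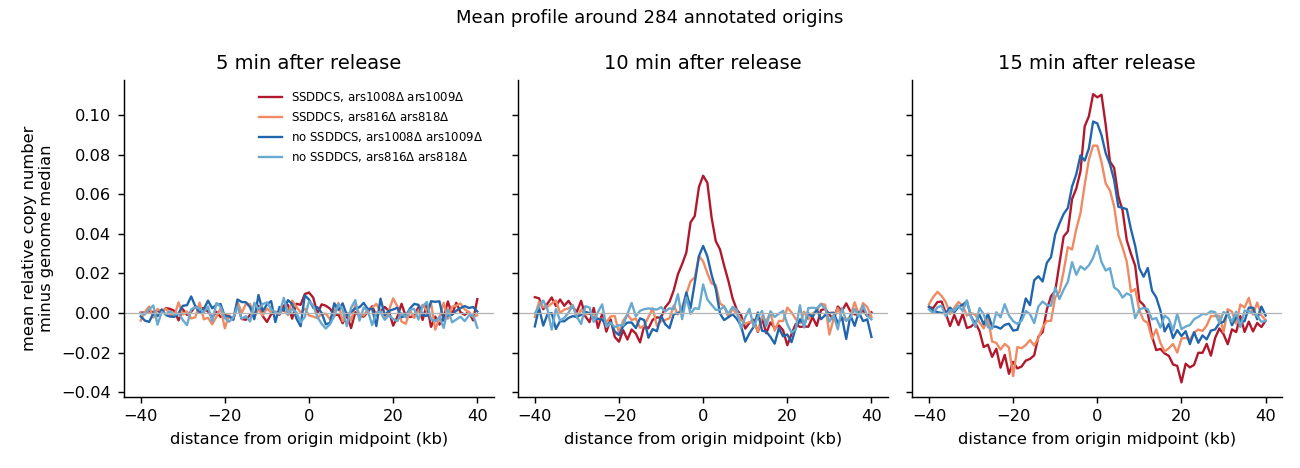
Mean relative copy number minus the genome median of the sample (y axis) against the distance from the origin midpoint in kb (x axis), over 284 annotated origins, at 5, 10 and 15 min; each line is 1 sample, with no error bars since each strain had 1 time course. Profiles were flat at 5 min, and at 15 min rose at the origin by 0.109, 0.0753, 0.089 and 0.0266 in SSDDCS IME2, SSDDCS NDT80, *sml1∆* IME2 and *sml1∆* NDT80.

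At 15 min peaks stood over the whole genome, and there were more of them with SSDDCS in both deletion backgrounds. There were 201, 139, 119 and 25 peaks, or a mean of 170 ± 43.8 (SD, n = 2 strains) with SSDDCS and 72 ± 66.5 (n = 2) without. Both SSDDCS strains had more peaks than either *sml1∆* strain, although the 2 *sml1∆* strains differed from each other by nearly as much as the means did. Dips numbered 94, 14, 72 and 3. The bulk values were 1.484, 1.25, 1.271 and 1.09, and the order of peak numbers did not follow them in 1 case, since SSDDCS NDT80 had more peaks than *sml1∆* IME2 at a lower bulk value. Counted at a height of at least 0.15, however, there were 62, 12, 82 and 0 peaks, and *sml1∆* IME2 then had the most. Against *sml1∆* IME2 the excess of peaks with SSDDCS was thus made of low peaks. Against *sml1∆* NDT80, which had 0 peaks of that height, it included higher ones.

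Peaks at 15 min fell at origins in every strain alike. Of the peaks, 89.1, 87.8, 91.6 and 84% were within 5 kb of an annotated origin, at median distances of 1.32, 1.01, 1.67 and 1.49 kb. Counted the other way, 57.2% of 339 origins had a peak within 5 kb in SSDDCS IME2, 39.5% in SSDDCS NDT80, 34.5% in *sml1∆* IME2 and 6.78% in *sml1∆* NDT80. The median distance between neighboring peaks was 54, 69, 69 and 204 kb. All 16 chromosomes carried peaks in the first 3 strains, and 3 chromosomes carried none in *sml1∆* NDT80.

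The heights of these peaks did not follow their number. The median height was 0.136, 0.119, 0.176 and 0.111 above the genome median, and the middle 50% of peaks lay between 0.12 and 0.155 in SSDDCS IME2, 0.11 and 0.132 in SSDDCS NDT80, 0.143 and 0.214 in *sml1∆* IME2, and 0.108 and 0.12 in *sml1∆* NDT80. The highest peaks were 0.223 on Chr XII with ARS1218 as the nearest origin (3.58 kb), 0.176 at ARS425, 0.301 at ARS305 and 0.142 at ARS220. Of the peaks, 3, 0, 37 and 0 reached 0.20. Peaks of *sml1∆* IME2 therefore spanned the widest range, and those of both SSDDCS strains a narrower one, as the plot of single peak heights shows. The range of *sml1∆* NDT80, with a bulk value of 1.09, was narrow as well. In the IME2 background the median height was lower with SSDDCS, and in the NDT80 background it was higher.

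**Figure D2:**
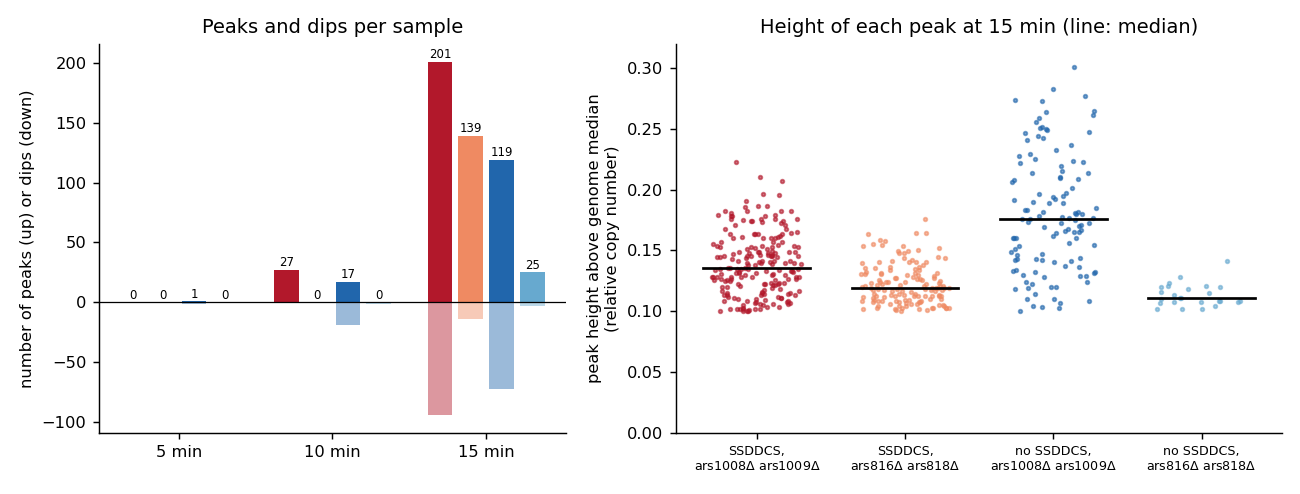
Left, number of peaks (solid bars, upwards) and of dips (pale bars, downwards) in each sample at 5, 10 and 15 min, in the colors of the profile around origins; right, height of every peak at 15 min above the genome median of its sample in relative copy number (points), with the median as a line. SSDDCS strains had 201 and 139 peaks with median heights of 0.136 and 0.119, and *sml1∆* strains 119 and 25 with 0.176 and 0.111.

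The strains closest in bulk replication at 15 min were SSDDCS NDT80 (1.25) and *sml1∆* IME2 (1.271), and they compare the shape of the profile at nearly the same amount of DNA. The comparison is of 1 sample with 1 sample, and the strains also differ in the deleted origins. SSDDCS NDT80 had 139 peaks of median height 0.119, and *sml1∆* IME2 119 peaks of 0.176. In SSDDCS NDT80 5.66% of bins were at least 0.10 above the genome median and 0.317% at least 0.10 below it, against 15% and 5.84% in *sml1∆* IME2. The SD of the running mean was 0.0533 against 0.082. Multiplied back by the bulk value, the 1st to 99th percentile of the genome ran from 1.13 to 1.40 copies in SSDDCS NDT80 and from 1.06 to 1.56 in *sml1∆* IME2. At nearly equal bulk the strain with SSDDCS thus had more and lower peaks. In SSDDCS IME2 it ran from 1.29 to 1.72 copies, and in *sml1∆* NDT80 from 1.02 to 1.19.

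Peaks coincided both within and across the kinds of strain, and the shares follow in part from the lengths of the lists. Of the 139 peaks of SSDDCS NDT80, 114 were within 5 kb of a peak of SSDDCS IME2 (82% of the former, 56.7% of the 201 of the latter). Of the 25 peaks of *sml1∆* NDT80, 24 were within 5 kb of a peak of *sml1∆* IME2 (96%, and 20.2% of the 119). Across kinds, SSDDCS NDT80 and *sml1∆* IME2 shared 64, or 46% and 53.8% of their peaks. SSDDCS IME2 and *sml1∆* IME2 shared 92, or 45.8% and 77.3%. Of the 25 peaks of *sml1∆* NDT80, 16 (64%) were near a peak of SSDDCS IME2 and 13 (52%) near one of SSDDCS NDT80, or 7.96% and 9.35% of the peaks of those strains. Over 316 origins with at least 3 bins outside the deleted regions, the excess over the genome median correlated with r = 0.71 between the SSDDCS strains and r = 0.69 between the *sml1∆* strains, and with 0.22 to 0.48 across kinds. These correlations are across origins, which are not independent, and describe 4 samples, each with a G1 sample of its own. At 5 min the same correlations were between -0.03 and 0.16.

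The highest origins of any 2 strains overlapped little. Of the 20 highest origins of each strain, 3 were shared by the SSDDCS strains, 7 by the *sml1∆* strains, and 2 to 4 by strains of different kinds. Values below are the excess of the mean relative copy number within 2.5 kb of the origin over the genome median at 15 min, and the origins were picked as the 6 highest by the mean of each kind, so they are a description. With SSDDCS they were ARS1116 on Chr XI (0.191, 0.167, 0.118 and -0.0448), ARS425 on Chr IV (0.171, 0.186, 0.0665 and -0.0034), ARS1303 on Chr XIII, ARS919 on Chr IX, ARS409 on Chr IV and ARS1419 on Chr XIV. Without SSDDCS they were ARS305 on Chr III, ARS1014 on Chr X, ARS418 on Chr IV, ARS1332 on Chr XIII, ARS1422 on Chr XIV and ARS1021 on Chr X. ARS1116 ranked 10th and 4th of 316 in the SSDDCS strains and 113th and 304th in the *sml1∆* strains.

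ARS305, one of the earliest and most efficient origins of the genome, ranked first in both *sml1∆* strains and 40th and 10th with SSDDCS. Its excess was 0.158, 0.155, 0.317 and 0.151, so that it was as high in both SSDDCS strains as in *sml1∆* NDT80, whose bulk value was much lower. ARS1014, within 20 kb of *CEN10*, had 0.126, 0.0139, 0.285 and 0.115 and ranked 120th, 283rd, 4th and 9th. ARS418 was high in all 4 strains, with 0.163, 0.148, 0.27 and 0.126. Rank positions above compare origins within a sample and are not changed by scaling its profile. Bin noise weighs more on them where the amplitude is small. In *sml1∆* NDT80 at 15 min the SD of the running mean was 0.0327, and bin noise alone gives 0.0218.

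**Figure D3:**
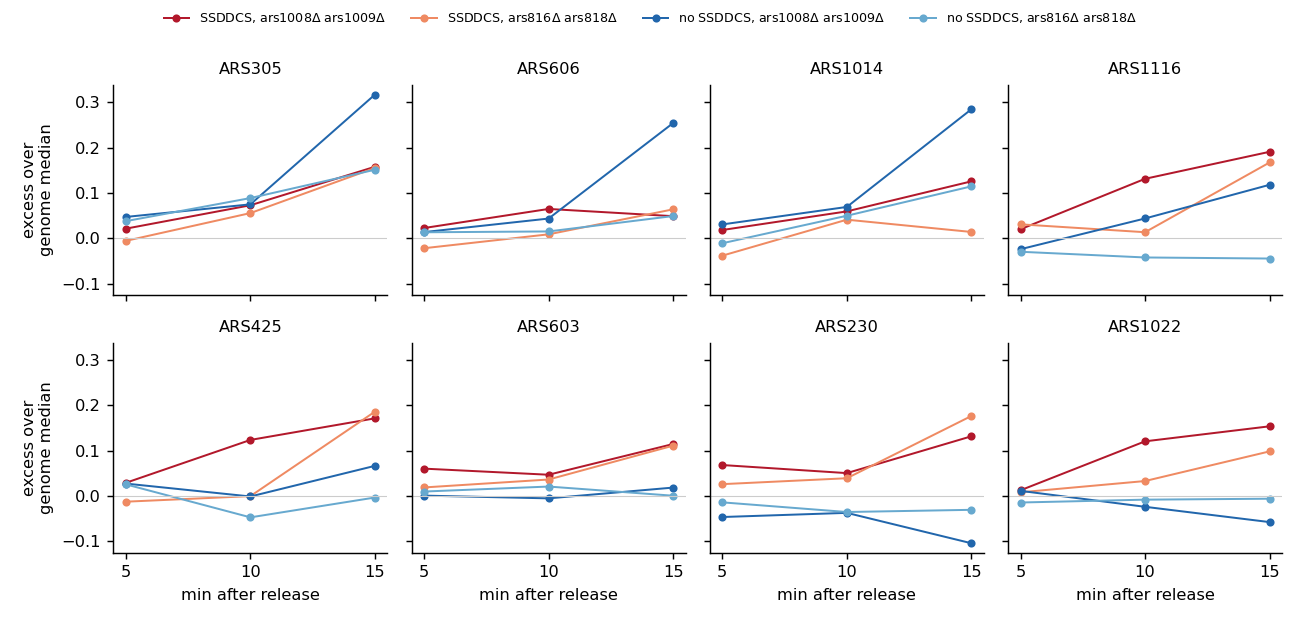
Excess of relative copy number over the genome median within 2.5 kb of 8 origins (y axis) at 5, 10 and 15 min after release (x axis), 1 line per strain and no error bars. ARS305, ARS606 and ARS1014 rose to 0.317, 0.254 and 0.285 in *sml1∆* IME2 at 15 min, whereas ARS230 and ARS1022 rose in both SSDDCS strains only.

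As a list, early origins known from other work did not stand out with SSDDCS, although single members did. The list of 7 early origins was ARS305, ARS306, ARS307 and ARS315 on Chr III, ARS416 on Chr IV (annotated as ARS1, the first origin isolated from yeast), and ARS606 and ARS607 on Chr VI. Its median excess at 15 min was 0.0954, 0.0944, 0.224 and 0.0725, beside 0.11, 0.0814, 0.07 and 0.0242 over all 339 origins. In *sml1∆* IME2 all 7 had a peak, against 4, 4 and 2 in SSDDCS IME2, SSDDCS NDT80 and *sml1∆* NDT80. The list thus stood above all origins in both *sml1∆* strains and at about their level with SSDDCS, and its median rank was 198, 125, 21 and 39 of 316. ARS606 had 0.0487, 0.0638, 0.254 and 0.049, and ARS607 had 0.0766, 0.0912, 0.224 and 0.103. ARS315 had 0.133, 0.13, 0.123 and 0.0648, and both SSDDCS values were above both *sml1∆* values. By relative copy number this held for 1 of the 7 (14.3%), beside 44.4% of all 313 origin windows. The reverse held for 2 of the 7 (28.6%), ARS607 among them, beside 6.39%.

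Of the 9 late and dormant origins 7 had enough bins to be tested, and 3 of these had both SSDDCS values above both *sml1∆* values at 15 min (42.9%, beside 44.4% of all 313 origin windows). ARS603 on Chr VI had 0.115, 0.111, 0.0185 and 0.00055, and a peak in both SSDDCS strains and neither *sml1∆* strain. ARS522, a late origin near the right end of Chr V, had 0.0773, 0.123, 0.0152 and -0.0073, and ARS609 on Chr VI had 0.0755, 0.0733, -0.0419 and 0.0046. ARS304, the neighbor of ARS305, had 0.025, 0.0304, 0.196 and 0.0767, the reverse order. ARS302, ARS303 and ARS320, next to the silent mating locus *HML*, lie next to each other and share bins. ARS303 and ARS320 had -0.0642, -0.0233, -0.221 and 0.0248, and ARS302 had -0.0534, -0.0515, -0.235 and 0.0434. ARS301 and ARS319 were covered by 1 and 2 bins and are not described further. The list as a whole had a median excess of 0.025, 0.0304, -0.0419 and 0.0248.

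Origins close to centromeres ranked higher in the *sml1∆* than in the SSDDCS strains. For those close to chromosome ends the median excess was higher with SSDDCS, while the median ranks of the kinds overlapped. The 34 origins within 20 kb of a centromere had a median excess of 0.0983, 0.0662, 0.186 and 0.0551 at 15 min, and 15, 9, 25 and 2 had a peak. These shares were 44.1, 26.5, 73.5 and 5.88%, against 57.2, 39.5, 34.5 and 6.78% of all 339 origins. Only in *sml1∆* IME2 was the share of centromere origins with a peak above that of all origins. Their median rank, over the 33 with at least 3 bins outside the deleted regions, was 198, 203, 48 and 75 of 316, and 4, 4, 20 and 17 were among the highest 25%. Of all peaks, 7.46, 6.47, 21 and 12% lay within 20 kb of a centromere, against 5.3% of the genome. The 12% of *sml1∆* NDT80 stands for 3 of 25 peaks. ARS308, which lies 0.187 kb from *CEN3*, had -0.0018, -0.0499, 0.14 and 0.0286. Centromere origins were thus near the top of the order without SSDDCS and below its middle with it. This list was fixed by distance alone, but its behavior was known from earlier results of these data.

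The 54 origins within 50 kb of a chromosome end had a median excess of 0.0864, 0.0865, -0.0149 and 0.0092, and 19, 20, 6 and 1 had a peak. These shares were 35.2, 37, 11.1 and 1.85%, against 57.2, 39.5, 34.5 and 6.78% of all 339 origins. Of the 42 that could be tested 25 had both SSDDCS values above both *sml1∆* values (59.5%) and 1 had both below, beside 44.4% and 6.39% of 313 origins. Over all origins the median excess with SSDDCS was 0.11 and 0.0814, so that of end origins was below it in SSDDCS IME2 and close to it in SSDDCS NDT80. In the *sml1∆* strains the median of end origins lay near or below the genome median. Their median rank, over the 44 with at least 3 bins outside the deleted regions, was 219.5, 130, 261 and 203 of 316. By rank the kinds thus overlapped. Mean relative copy number over the 20 kb at each end was 1.02, 1.02, 0.974 and 0.996. At 10 min the median excess was 0.036, 0.0217, 0.0039 and 0.015, a mean difference between kinds of 0.0194.

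**Figure D4:**
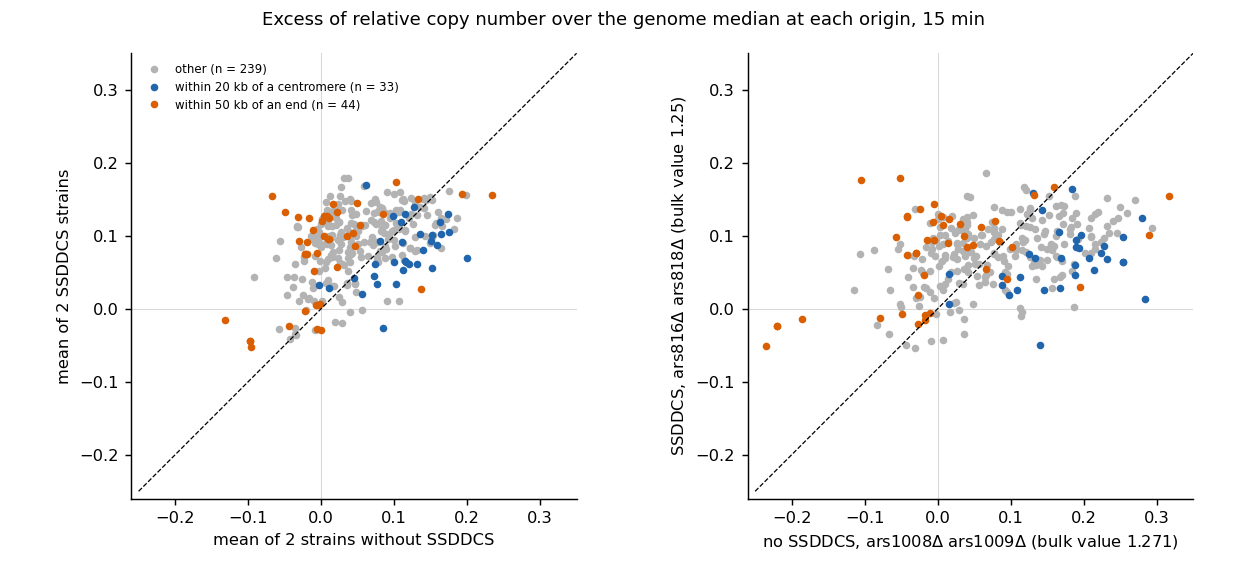
Excess of relative copy number over the genome median at 15 min for each of 316 origins with at least 3 bins, outside the deleted regions, by position (blue, within 20 kb of a centromere, n = 33; orange, within 50 kb of an end, n = 44; grey, other, n = 239). Left, mean of the 2 SSDDCS strains against mean of the 2 *sml1∆* strains; right, SSDDCS NDT80 against *sml1∆* IME2, the pair of nearly equal bulk value; the dashed line marks equality, and centromere origins lie mostly below and end origins mostly above it.

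The difference between kinds was tested for each of 1937 windows of 5 kb, 313 on origins and 1624 that overlap none, with limma on log2 relative copy number and Benjamini-Hochberg adjustment over all windows at each time. At 15 min 0 windows were higher and 0 lower with SSDDCS at an adjusted p under 0.05 (0% called in each direction), with a smallest adjusted p of 0.108. At an unadjusted p under 0.05, 145 were higher and 137 lower. With the deleted origin pair added as a block, 98 windows were higher (5.06%) and 70 lower (3.61%). The 98 included 58 origins and the 70 included 3, while origins made up 313 of all 1937 windows (16.2%). Of the 58, 15 were within 50 kb of an end, as were 42 of the 313 origins tested. Within 20 kb of a centromere there was 1 of the 58, against 33 of the 313. Within 50 kb of an end lay 31 of the 98 windows and 6 of the 70, as do 212 of all 1937 (10.9%). Of the 70 windows that were lower in that fit, 16 lay within 20 kb of a centromere, as do 98 of all 1937 windows (5.06%). In the fit with the block limma used a single variance for all windows. It did so also in the fits with 1 strain left out, in which the lone strain of a kind is assumed to vary like the remaining pair. Without *sml1∆* IME2 65 windows were higher and 68 lower, and without *sml1∆* NDT80 133 and 125, with the spread taken from the SSDDCS strains alone. Without either SSDDCS strain there were 0 and 0. Deviations of strains that share a deletion correlated across windows with r = 0.40 at 15 min, 0.16 at 10 min and -0.03 at 5 min.

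Without a threshold on p, origins differed from other windows in how often the kinds did not overlap. At 15 min both SSDDCS values were above both *sml1∆* values in 21% of all windows and below in 25.2%. Of the 313 origin windows 139 were above (44.4%) and 20 below (6.39%). Of the 1624 other windows 268 were above (16.5%) and 469 below (28.9%). At 10 min the shares over all windows were 15.3% above and 21.9% below, and 84 (26.8%) and 20 of the origin windows. At 5 min they were 16.7% and 18.8%, and 56 (17.9%) and 47 (15%) of the origin windows, close to those of all windows. The median log2 difference, SSDDCS over *sml1∆*, at origins was 0.0016, 0.028 and 0.047 at 5, 10 and 15 min.

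A peak in both SSDDCS strains and in neither *sml1∆* strain at 15 min was found at 51 of 339 origins (15%), while 2 origins had the reverse. Of the 51, 9 were within 50 kb of an end, or 16.7% of the 54 such origins. Neither there nor within 20 kb of a centromere were 42, or 16.7% of 251. These 2 shares are equal and near that of all origins. Within 20 kb of a centromere there were 0 of 34. The 6 with the largest difference, chosen after their values were seen, were ARS230, ARS425, ARS503, ARS735, ARS1011 and ARS1022. ARS230, 29.1 kb from the left end of Chr II, had 0.132, 0.176, -0.104 and -0.0306, a log2 difference of 0.31 ± 0.056 (SE) with an adjusted p of 0.108 by limma and 1.3e-07 with the block. ARS1022 near the right end of Chr X had 0.154, 0.0984, -0.0577 and -0.0061. ARS735 on Chr VII was highest in rank of all origins in SSDDCS IME2 with 0.22, and had 0.0897 in SSDDCS NDT80, 0.027 in *sml1∆* IME2 and -0.0022 in *sml1∆* NDT80. That the 2 kinds did not overlap in these 6 origins follows largely from how they were chosen. Of all 313 origin windows 44.4% had both SSDDCS values above both *sml1∆* values.

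Around the 43 such origins that lie more than 40 kb from an end and outside the deleted regions, the mean profile rose by 0.14 and 0.102 at 15 min in the SSDDCS strains over its level 30 to 40 kb away. In the *sml1∆* strains, whose values also defined the group, it rose by 0.0354 and 0.0014. The 20 origins with a peak in both *sml1∆* strains rose by 0.144, 0.105, 0.247 and 0.118. At 77 origins with no peak in any strain it still rose by 0.0385 and 0.0251 with SSDDCS, against 0.0128 and -0.0031 without.

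Origins lower with SSDDCS, chosen after their values were seen as the 6 with the most negative difference at 15 min, were ARS1014, ARS308, ARS304, ARS427, ARS606 and ARS1214. ARS427 on Chr IV had 0.0192, 0.003, 0.186 and 0.0283. At ARS308 the log2 difference was -0.16 ± 0.058 (SE) with an adjusted p of 0.264 by limma. At each of these 6 except ARS1014 and ARS606 both SSDDCS values were below both *sml1∆* values, as in 20 of all 313 origin windows (6.39%). For the 6 this follows in part from how they were chosen. None passed the test without the block, and with it ARS1014, ARS308 and ARS304 did (adjusted p = 0.015, 0.0202 and 0.0317 by limma) while ARS427, ARS606 and ARS1214 did not.

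At 5 min 1 window was higher with SSDDCS (0.0516% of those tested) and 0 were lower, against 52 and 66 at an unadjusted p under 0.05. At 10 min there were 0 in each direction (0%), against 75 and 71. The window of 5 min lies on Chr XV from 20001 to 25000, holds no annotated origin and overlaps *ENB1*, an enterobactin transporter gene, and *IMA2*, an isomaltase gene. Its relative copy number was 1.06, 1.04, 0.874 and 0.956 at 5 min and 1.03, 1.01, 0.932 and 0.959 at 10 min. At 15 min it was 1.1, 1.1, 0.97 and 0.966. Both *sml1∆* values were thus below the mean of their sample at each time, and the lowest was that of *sml1∆* IME2 at 5 min. The log2 difference at 5 min was 0.20 ± 0.037 (SE, adjusted p = 0.00105 by limma). The call was lost when either SSDDCS strain or *sml1∆* IME2 was left out, and whether it reflects replication was not tested.

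Values at the deleted origins were compared within each kind, between the strain that lacks the origin and the strain that retains it, and are given without a test. Over all 339 origins the median excess was higher in the IME2 than in the NDT80 strains, at 0.11 against 0.0814 with SSDDCS and 0.07 against 0.0242 without, so a lower value at ARS818 in the NDT80 strains has the direction of origins in general. At ARS1008, where 2 bins remained in the deleted strain, the excess at 15 min was 0.083 in SSDDCS IME2 and 0.138 in SSDDCS NDT80, which retains it, and -0.0466 in *sml1∆* IME2 against 0.0664 in *sml1∆* NDT80. At ARS1009 it was 0.0222 against 0.0785 with SSDDCS and 0.0863 against 0.0558 without. At ARS818, deleted in the NDT80 strains, it was 0.0126 against 0.119 with SSDDCS and 0.0284 against 0.0597 without. No strain had a peak within 5 kb of ARS818. SSDDCS NDT80 had a peak at both ARS1008 and ARS1009, and no other strain had one at either.

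The origins flanking the deletions had these values in the same samples. ARS815 had 0.132, 0.115, 0.172 and 0.0782 and ARS820 had 0.159, 0.124, 0.161 and 0.0774, each with a peak in the first 3 strains. ARS1010 had 0.0838, 0.0945, 0.0712 and 0.0037, with a peak in both SSDDCS strains only, as had ARS1007 to the left of the deleted pair with 0.177, 0.105, 0.0537 and 0.0431. ARS810, on the same arm as *NDT80*, remained low with -0.0085, 0.0301, -0.0333 and -0.0266, over 3 bins. ARS816 and ARS821 are not in the annotation used and were not measured as origins here.

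**Figure D5:**
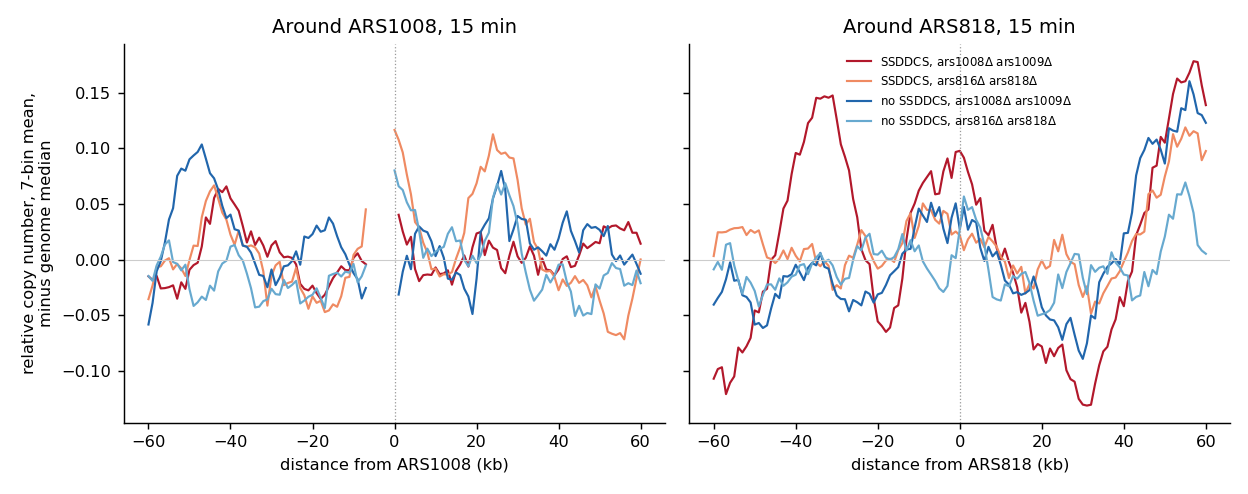
Relative copy number at 15 min (7-bin running mean minus the genome median, y axis) by distance from ARS1008 (left) and ARS818 (right) in kb, 1 line per strain; gaps are bins absent from the files. Within 2.5 kb of ARS818 the excess was 0.119 in SSDDCS IME2, which retains it, and 0.0126 in SSDDCS NDT80, which lacks it.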

How the data were processed

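Per the labels, the authors aligned the reads to sacCer3, with Bowtie2 2.3.4, SAMtools 1.7.2 and bedtools 2.26.0 named. The authors deposited 2 values per 1-kb bin, the ratio of timepoint to G1 reads scaled by the bulk value, and the bulk value itself, also as a ratio. An error in a bulk value cancels on division, and noise in a G1 sample is shared by the 3 timepoints of a strain. The members and lists were chosen with earlier results of these data known. The 32 samples of 20 to 60 min were not used.

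Ratio was divided by bulk value and peaks were called with scipy 1.17.1. The R64 annotation lists 352 origins, 339 with data. Windows needed at least 3 bins in all 4 samples of a time and were tested with limma 3.58.1 in R 4.3.3. The tests left out ARS1007 to ARS1010 (Chr X) and ARS815 to ARS820 (Chr VIII), where ARS1007 replaces ARS1007.5, which is not annotated. Both procedures were also run on simulated data. The simulations held independent noise and no difference in progress between strains, so they do not show how the procedures perform on these samples. Origins named were the deleted, flanking, early, late and highest ones, the largest called changes, and those nearest to each sample's highest peak. No origin was called at 15 min, so origins with the largest differences were named after their values were seen. Running mean, height, prominence, base, window size, scale and left-out strains were varied.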

Additional observations from a re-analysis of the deposited data

Results flagged for a closer look

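In 6 of 18 summary measures the difference between *SSDDCS* and *sml1∆* strains had opposite signs in the IME2 and NDT80 backgrounds. Each background holds 1 strain of each kind, so this was not tested. The difference, SSDDCS minus *sml1∆*, in median peak height at 15 min was -0.03996 in the IME2 strains and 0.008584 in the NDT80 strains. The spread of the profile at 15 min differed by -0.008328 and 0.02066. The early list differed by 0.03216 and -0.001136 at 10 min and by -0.1288 and 0.0219 at 15 min. The late and dormant list at 10 min differed by 0.07977 and -0.005868, and centromere origins at 15 min by -0.08775 and 0.01108. Bulk values at 15 min were 1.484 and 1.271 in the IME2 strains and 1.25 and 1.09 in the NDT80 strains, and the part of this difference in progress in the signs was not tested.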

How the results depend on the processing

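Of 170 alternatives to 24 results, other than left-out strains, 133 stayed within the spread or within 1.5 times, 36 moved and 1 reversed, and the causes were not tested. Differences are SSDDCS minus *sml1∆* means. The peak number difference was -23, 0.5, -44.5 and -3.5 at 5 min with a 3-bin mean, a 15-bin mean, a height of 0.05 and the 25th percentile as base. At 10 min it was -20.5 with a 3-bin mean, 63.5 with 4 times the noise SD, 24 over the 25th percentile and 48 on the deposited ratio. At 15 min it was 11 with a 15-bin mean, -4 at a height of 0.15, and reversed to -58.5 when SSDDCS at 10 min was set against *sml1∆* at 15 min, where the spread differed by -0.02839 and end origins by 0.031686. Peak height at 10 min differed by -0.027951 with 4 times the noise SD. The spread at 5 min differed by -0.005845 (3 bins) and -0.013384 (95th minus 5th percentile). The share of peaks near origins with SSDDCS was 79.912, 85.402, 86.137, 84.274, 87.338, 86.102 and 86.478% with 3 bins, 15 bins, heights of 0.05 and 0.15, 4 times the noise SD, the 25th percentile and the deposited ratio, and 76.962 and 89.518% within 2.5 and 10 kb. Without SSDDCS it was 73.555, 79.688 and 75.645% with 3 bins, 15 bins and a height of 0.05, and 66.874% within 2.5 kb. End origins at 15 min differed by 0.10211 over the 25th percentile and 0.1226 on the deposited ratio. The 1 window higher at 5 min became 0 on the deposited ratio and with windows of at least 1 bin. At 15 min 1 window was higher with quantile scaling and 3 with at least 1 bin.

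Strains that share a deletion were paired as a replicate block, which gave 98 higher and 70 lower windows at 15 min and the same counts as without it at 5 and 10 min. The labels give this pairing by genotype only. With each strain left out in turn, windows higher ranged from 0 to 3 at 5 min, 0 to 7 at 10 min and 0 to 133 at 15 min, and windows lower from 0 to 4, 0 to 0 and 0 to 125. The peak number difference ranged from -1 to 0 at 5 min, -8.5 to 18.5 at 10 min and 51 to 145 at 15 min, height at 15 min from -0.0483 to 0.0169, the early list from -0.129 to 0.0224, centromere origins from -0.104 to 0.0271 and end origins from 0.0773 to 0.101. Depth is unknown, and bin noise limits single origins.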
